A study of Homo sapiens with 24 samples.

Results

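L-428 is an established Hodgkin lymphoma cell line, and its early transcriptional response to AEZS-136 was read from 6 of the 24 bead arrays of the series, 3 arrays of L-428 cells that received 10 µM AEZS-136 for 2 h and 3 arrays of L-428 control cells at 2 h. AEZS-136 is described by the study as an ATP-competitive compound that inhibits both PI3K and ERK, and the controls were given its vehicle, DMSO. The other 18 arrays hold the same pair of groups for the lines KM-H2, L-540 and SUP-HD1, with 3 arrays in each group. The study classed L-428 and KM-H2 as resistant to killing by AEZS-136 and the other lines as sensitive. All L-428 arrays stand for 1 cell line. The labels number the 3 arrays of a group but do not tell whether separate cultures lie behind them, and every p-value here rests on the spread between arrays, which may be technical. Bulk RNA was measured, and fewer cells and less RNA per cell cannot be told apart in it.

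PI3K signals through AKT and the kinase complex mTORC1 to promote growth and translation, and AKT holds the FOXO transcription factors out of the nucleus. ERK lies at the end of the RAS, RAF and MEK cascade, and a set of immediate early genes and feedback inhibitors is transcribed under its control. Cells under nutrient, redox or endoplasmic reticulum stress phosphorylate the translation factor eIF2, which lowers bulk translation and favours translation of the transcription factor ATF4, an arrangement called the integrated stress response.

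Values are normalized log2 intensities, on which a difference of 1 is a 2-fold change, and changes are AEZS-136 minus control with the standard error of the linear model. A probe was called where its change had an adjusted p under 0.05 and exceeded 0.4 in size. Array medians of the raw signal were 104.4 to 118.6 on the AEZS-136 arrays and 111.2 to 127.8 on the control arrays, with 18196 to 18862 and 17502 to 19067 probes detected. The lowest correlation between arrays was 0.9916 among AEZS-136 arrays and 0.9902 among control arrays, against a highest correlation of 0.9891 across the groups. Of 11 measured markers of Hodgkin Reed-Sternberg cells, 10 were detected on L-428 arrays, among them FSCN1 (mean 14.40 with AEZS-136, 14.35 in control) and CCL17 (14.08 and 14.05). The exception was TNFRSF8, which encodes CD30 and was detected on no AEZS-136 array and on 1 control array. Of these markers GATA3 was called, with a change of 0.46. Of 12 B cell, 10 T and NK cell, 8 myeloid and 3 stromal or epithelial markers 0 were called by limma, with 2, 0, 2 and 1 at an unadjusted p under 0.05, and the B cell markers MS4A1 and CD22 were detected on no L-428 array.

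AEZS-136 changed 1788 of 24578 probes in L-428 (7.27%), of which 996 rose (4.05%) and 792 fell (3.22%). With each gene represented by its brightest probe, 1083 of 13406 genes were called (8.08%), 599 of them higher (4.47%) and 484 lower (3.61%). The median change over all genes was -0.00319. The 3 treated and 3 control values did not overlap for 1745 of the called probes, a separation also seen in 24.9% of all probes and 28.0% of genes. The 12 largest rises and 12 largest falls were named only among called probes whose groups did not overlap. Of the 12 genes with the largest rises 8 belonged to the integrated stress response, the snoRNA host genes or the clustered histone genes. Lower were 4 of 21 chaperone genes and 4 of 15 genes of ERK output and feedback.

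**Figure D1:**
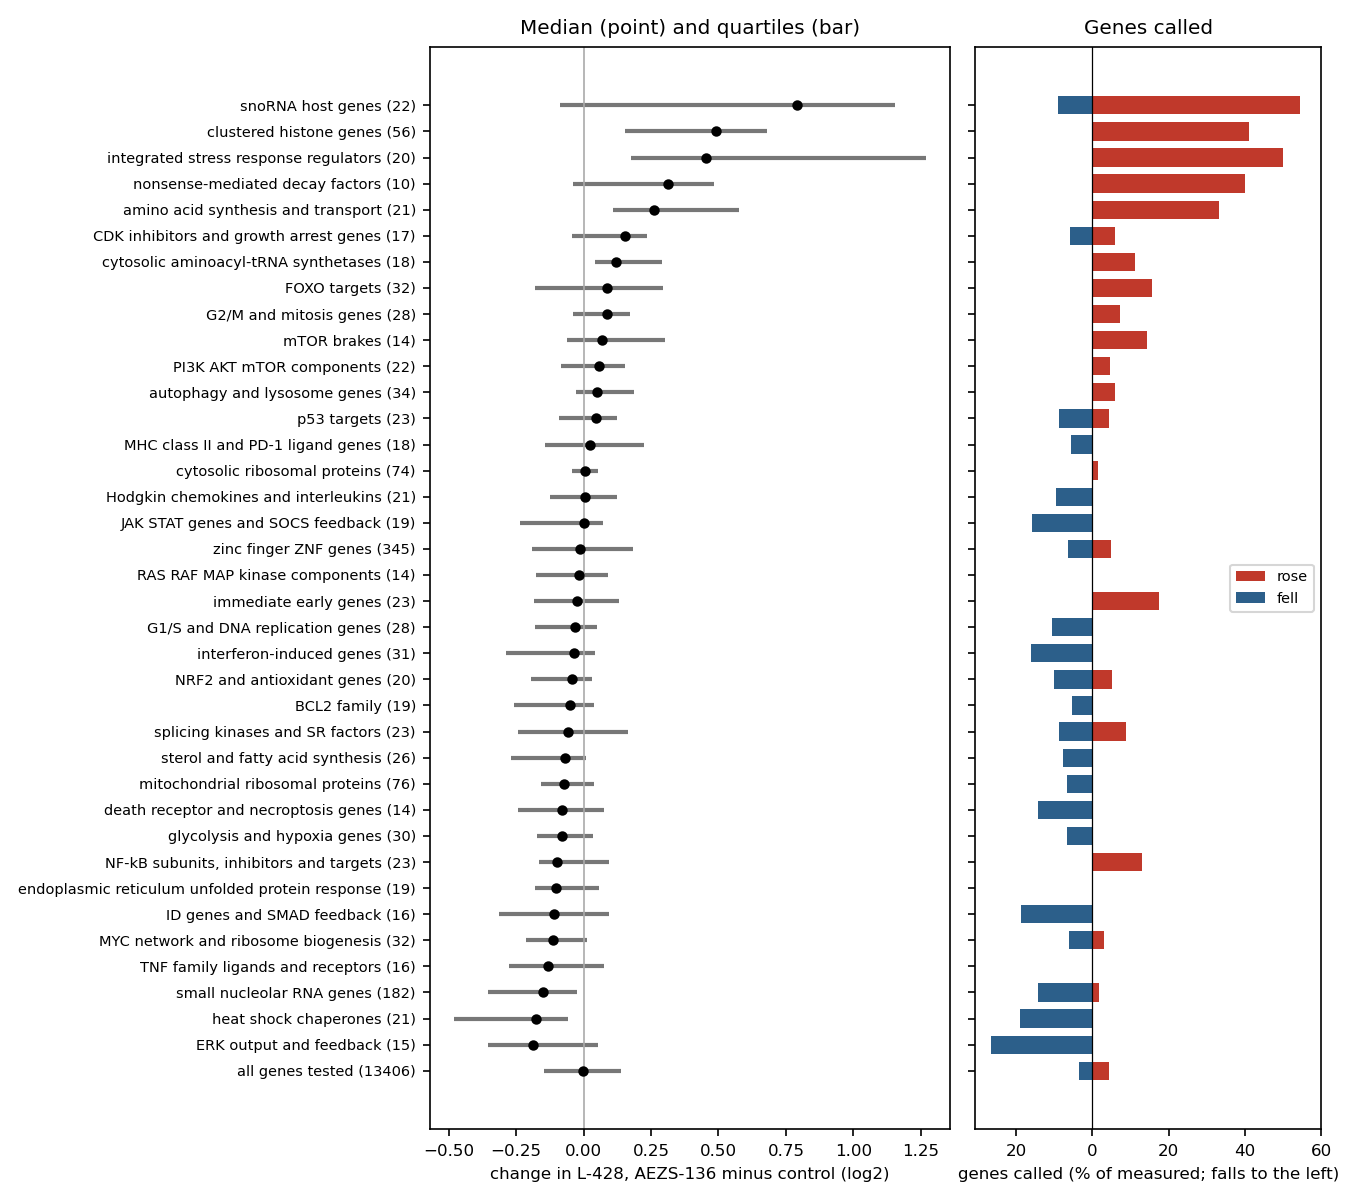
Left, the median (point) and quartiles (bar) of the L-428 change, AEZS-136 minus control on the log2 scale, for each gene list with its number of measured genes in brackets; right, the percentage of measured genes that rose (red, to the right) or fell (blue, to the left). The snoRNA host genes have the highest median, 0.79, and ERK output and feedback the lowest, -0.19, with all 13406 genes tested in the bottom row.

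Of 20 measured regulators of the integrated stress response 10 rose and 0 fell, with a median change of 0.45. Detection on all 3 arrays of an L-428 group was reached by 16 of the 20. The most induced gene of the whole response was DDIT4, a stress-induced inhibitor of mTORC1, at 10.68, 10.71 and 10.56 with AEZS-136 against 8.01, 8.41 and 8.54 in control, a change of 2.33 (SE 0.12, adjusted p = 4.06e-11). CHAC1, an enzyme that degrades glutathione, stood at 6.84, 7.15 and 7.25 against 4.52, 4.91 and 4.99 in control, where 1 of 3 arrays detected it. The size of its change depended on the processing, at 2.27 here, 0.92 with the deposited normalized values and 0.95 without background correction. For DDIT4 and CHAC1 every AEZS-136 array lay above every control array, which the naming rule required.

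DDIT3, which encodes the transcription factor CHOP, was at 10.90, 10.84 and 10.87 with AEZS-136 and at 8.88, 8.89 and 8.81 in control (change 2.01, SE 0.090). SESN2, another inhibitor of mTORC1, was at 7.30, 7.42 and 7.89 with AEZS-136 and at 5.76, 6.11 and 5.75 in control, a change of 1.66 (SE 0.23, adjusted p = 7.27e-05). CEBPB, a transcription factor that pairs with ATF4 and CHOP, reached 11.12, 11.15 and 11.12 against 9.75, 9.61 and 9.60 in control (change 1.48, adjusted p = 6.26e-10). None of these values overlapped between the groups. ATF3, a stress-induced transcription factor, was at 11.93, 12.02 and 11.98 with AEZS-136 and at 10.87, 10.68 and 10.79 in control, a change of 1.20 by its brightest probe and 0.30 by a second. PPP1R15A, the subunit that directs a phosphatase to eIF2, was at 10.55, 10.55 and 10.57 with AEZS-136 and at 9.54, 9.53 and 9.54 in control (change 1.02, adjusted p = 2.04e-07).

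ATF4 itself was among the brightest of these transcripts, at 13.64, 13.63 and 13.67 with AEZS-136 against 12.88, 12.91 and 12.96 in control, a change of 0.73 (adjusted p = 4.28e-06). Its other probes disagreed, with changes of 0.84 and -0.37. CEBPG and ATF5, also partners or targets of ATF4, rose by smaller amounts, 0.49 and 0.48. Members that did not pass the test included TRIB3 (0.21), GADD45A (0.19), GDF15 (-0.02) and the eIF2 kinase genes EIF2AK3 (0.22) and EIF2AK4 (0.05). With median scaling between arrays, 7 members of the list rose in place of 10.

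Genes for amino acid synthesis and uptake are classical ATF4 targets, and 7 of 21 rose with 0 falling (median 0.26). CTH, which makes cysteine from cystathionine, was at 9.15, 9.10 and 9.25 with AEZS-136 against 7.38, 7.39 and 7.31 in control, a change of 1.81 (SE 0.088, adjusted p = 3.33e-11), and its other probes changed by 1.68 and 0.97. SLC38A2, a transporter of neutral amino acids, was at 10.52, 10.58 and 10.64 with AEZS-136 and at 9.17, 9.62 and 9.75 in control (change 1.07, adjusted p = 9.60e-05). These groups did not overlap. PSPH and PSAT1, of the serine synthesis pathway, rose by 0.70 and 0.62, while PHGDH, its first enzyme, changed by 0.30 and was not called. SLC1A4 rose by 0.59, the asparagine synthetase gene ASNS by 0.58 and SLC36A4 by 0.47, the last with overlapping groups (6.41, 6.43 and 6.06 with AEZS-136 against 5.75, 5.63 and 6.09 in control). SLC7A11 and SLC7A5, subunits of the cystine and large neutral amino acid carriers, changed by -0.03 and 0.05. The count was 5 with the deposited normalized values and 2 with median scaling.

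Among 18 cytosolic aminoacyl-tRNA synthetases, which charge tRNAs and are often induced with the amino acid genes, AARS1 and GARS1 rose and 0 fell. AARS1 was at 12.56, 12.59 and 12.61 with AEZS-136 and at 12.15, 11.98 and 12.05 in control, a change of 0.53 (adjusted p = 1.43e-04). GARS1 was at 12.36, 12.48 and 12.34 with AEZS-136 and at 11.90, 11.99 and 11.89 in control, a change of 0.47. The list's median was 0.12, and it was -0.03 with median scaling, where neither gene was called.

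The promoters of 4 of the induced genes are shown because they carry the core of the amino acid response element, the composite site at which C/EBP and ATF factors are known to bind. Capitals mark matches to TGATGNAA or its reverse complement TTNCATCA, searched on both strands of the 300-base RefSeq window around each gene's start (GRCh38.p14). The windows are chr15:40953221-40953520 (plus strand) for CHAC1, chr1:212565157-212565456 (plus strand) for ATF3, chr7:97872359-97872658 (minus strand) for ASNS and chr16:70289457-70289756 (minus strand) for AARS1, each written 5′ to 3′ along the gene.
CHAC1: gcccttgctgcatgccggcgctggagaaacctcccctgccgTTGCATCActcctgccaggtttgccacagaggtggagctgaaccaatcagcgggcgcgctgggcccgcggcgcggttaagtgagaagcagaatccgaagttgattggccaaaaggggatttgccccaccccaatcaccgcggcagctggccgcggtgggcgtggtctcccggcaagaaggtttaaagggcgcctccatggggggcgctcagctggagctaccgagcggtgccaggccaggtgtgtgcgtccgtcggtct
ATF3: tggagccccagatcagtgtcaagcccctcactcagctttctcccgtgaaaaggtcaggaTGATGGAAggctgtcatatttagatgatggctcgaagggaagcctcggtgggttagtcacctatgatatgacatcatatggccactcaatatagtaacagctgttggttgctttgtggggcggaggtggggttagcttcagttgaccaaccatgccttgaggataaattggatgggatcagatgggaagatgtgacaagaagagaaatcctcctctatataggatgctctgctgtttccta
ASNS: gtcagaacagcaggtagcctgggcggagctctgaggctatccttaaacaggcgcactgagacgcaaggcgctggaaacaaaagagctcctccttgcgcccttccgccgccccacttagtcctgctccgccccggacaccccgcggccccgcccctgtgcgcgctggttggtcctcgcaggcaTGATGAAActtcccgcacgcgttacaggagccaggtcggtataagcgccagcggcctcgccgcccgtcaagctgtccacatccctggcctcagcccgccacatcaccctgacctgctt
AARS1: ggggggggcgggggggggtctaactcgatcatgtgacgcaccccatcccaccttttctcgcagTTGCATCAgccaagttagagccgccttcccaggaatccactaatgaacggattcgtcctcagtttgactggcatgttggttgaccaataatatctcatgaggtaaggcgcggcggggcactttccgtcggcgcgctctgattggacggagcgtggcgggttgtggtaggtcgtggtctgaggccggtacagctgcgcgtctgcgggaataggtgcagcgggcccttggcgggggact

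Counted from 1 at the 5′ end of the window, the matches lie at positions 42 to 49 in CHAC1, 60 to 67 in ATF3, 183 to 190 in ASNS and 64 to 71 in AARS1. The same letters occur in 1.92% of 10569 tested genes with a RefSeq promoter, in 2 of 18 integrated stress response promoters, in 4 of 17 amino acid gene promoters and in 5 of 15 synthetase promoters. In the amino acid list a match was found in 1 of 6 promoters of called genes and in 3 of 11 of those not called. A match describes the letters in the window and does not show binding.

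**Figure D2:**
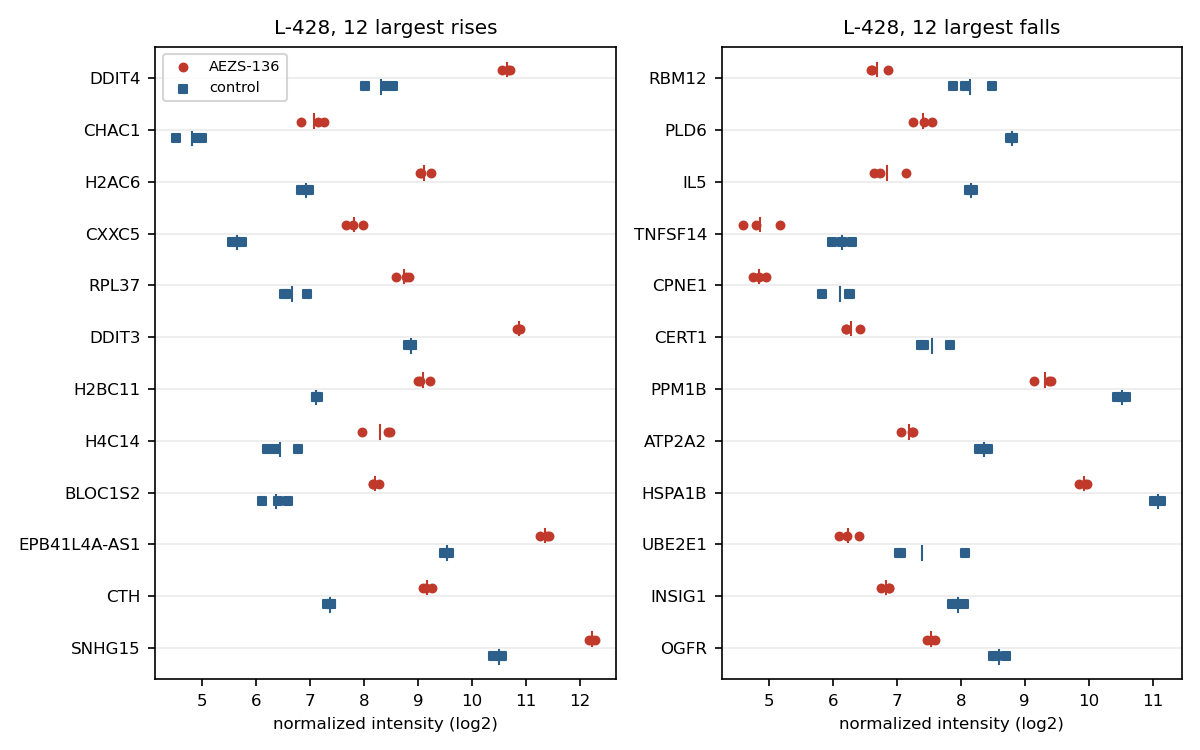
Normalized log2 intensity of the 12 genes with the largest rise (left) and the 12 with the largest fall (right) in L-428, with 3 AEZS-136 arrays as red circles above 3 control arrays as blue squares and short lines at the group means. The groups do not overlap for any of these genes because the naming rule required it, and 1 UBE2E1 control value lies apart at 8.06.

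Few genes for components of the pathways named for the compound were called, and genes of their transcriptional output moved in part. Of 22 genes for components of PI3K, AKT and mTOR signalling only RPS6KB1, the gene of the S6 kinase, was called. That is 4.55%, near the 4.47% of all genes that rose. RPS6KB1 was at 9.04, 9.16 and 8.94 with AEZS-136 against 8.46, 8.59 and 8.75 in control (change 0.45, adjusted p = 0.00263). Its call was lost with 3 of the other scalings, and also without control replicate 1 or without AEZS-136 replicate 2. Of 14 genes for RAS, RAF and MAP kinases 0 were called by limma, with 1 at an unadjusted p under 0.05. Among 32 FOXO targets, genes that are released when AKT is inhibited, 5 rose and 0 fell, with a median of 0.088. TSC22D3, which encodes the leucine zipper protein GILZ, was at 10.67, 10.64 and 10.46 with AEZS-136 and at 9.18, 9.27 and 9.23 in control (change 1.36, adjusted p = 1.02e-05), and its other probes rose by 0.60 and 1.20. GADD45B, a stress sensor that acts on MAP kinase signalling, was at 7.87, 7.64 and 7.95 with AEZS-136 and at 6.89, 6.22 and 6.47 in control (change 1.29, adjusted p = 6.09e-05).

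BCL6, the transcriptional repressor of germinal centre B cells, was at 8.43, 8.21 and 8.26 with AEZS-136 and at 6.98, 7.20 and 7.18 in control, a change of 1.18 (SE 0.098, adjusted p = 9.76e-08) with no overlap. KLF6 rose by 0.70 and TXNIP, which restrains glucose uptake, by 0.49. Other members did not pass the test, including PIK3IP1 (-0.07), IRS2 (-0.29), CCNG2 (0.28), CDKN1B (0.23) and SESN3 (0.12). The forkhead core TGTTTAC was found in 4 of 29 FOXO target promoters and in 2.35% of all. Of 14 brakes on mTOR signalling DDIT4 and SESN2 rose and 0 fell, and DEPTOR (-0.05), TSC1 (0.01) and TSC2 (-0.06) were not called.

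Of 15 measured genes listed as ERK output and feedback 4 fell and 0 rose (median -0.19). In the study's blots ERK1/2 phosphorylation went up in L-428 within 2 h at 10 µM, and only a higher dose lowered it. Whether ERK activity underlies the changes in this list was not tested. SPRY1, a feedback inhibitor of receptor and RAS signalling, was at 7.51, 7.29 and 7.09 with AEZS-136 against 8.12, 8.40 and 8.41 in control, a change of -1.01 (SE 0.14, adjusted p = 9.21e-05), and its second probe changed by -0.92. SPRED1 and SPRED2, related inhibitors, changed by -0.40 and -0.52, and the MYC oncogene was at 9.82, 9.83 and 9.77 with AEZS-136 and at 10.43, 10.29 and 10.18 in control (change -0.49, adjusted p = 0.00312). The phosphatase genes DUSP6 (0.39), DUSP4 (0.04) and DUSP5 (-0.26), as well as SPRY2 (-0.12), SPRY4 (0.14) and EGR1 (-0.31), were not called. Each of the 3 other scalings called 2 of these genes in place of 4.

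IER3, the immediate early gene that the study follows as a mediator of resistance, was at 9.15, 9.17 and 9.15 with AEZS-136 and at 9.12, 8.93 and 9.05 in control. The groups did not overlap, but the change of 0.13 (SE 0.094, adjusted p = 0.524) did not pass the test. The study drew its claim on IER3 from arrays at a later time than 2 h and from protein, silencing, overexpression and xenograft experiments. The 2 h values given here do not test that claim. At 2 h the change of IER3 was 0.28 in KM-H2, -0.05 in L-540 and -0.39 in SUP-HD1.

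The immediate early genes did not move as a block, with 4 of 23 higher, 0 lower and a median of -0.03. Besides ATF3 and KLF6 these were JUN, at 10.66, 10.57 and 10.53 with AEZS-136 and at 10.07, 10.06 and 10.07 in control (change 0.52, adjusted p = 0.00111), and FOSB, detected on 3 AEZS-136 arrays and 1 control array (change 0.61, adjusted p = 0.0368) with overlapping groups. IER2 changed by -0.73, DUSP2 by -0.49 and JUNB by -0.27, none of them called. Median scaling left 1 of the 4 rises.

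The snoRNA host genes are mostly noncoding transcripts whose introns give rise to small nucleolar RNAs (snoRNAs), the guides of ribosomal RNA modification, and many of their spliced products are known to be removed by nonsense-mediated decay when they are translated. They had the highest median of all lists, 0.79, with 12 of 22 higher and 2 lower. EPB41L4A-AS1 was at 11.39, 11.42 and 11.27 with AEZS-136 and at 9.55, 9.48 and 9.58 in control, a change of 1.82 (SE 0.086, adjusted p = 2.79e-11). SNHG15 was at 12.17, 12.23 and 12.28 with AEZS-136 and at 10.53, 10.40 and 10.55 in control, a change of 1.73 (SE 0.073, adjusted p = 1.12e-11). SNHG17 was at 10.83, 10.74 and 10.78 with AEZS-136 and at 9.10, 9.08 and 9.01 in control, a change of 1.72. In all 3 the groups lay more than 1 log2 unit apart.

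Rises of 1.21 in TAF1D, 1.18 in SNHG8, 1.16 in SNHG1, 1.14 in SNHG11, 1.11 in SNHG12, 1.09 in SNHG32, 1.07 in SNHG7, 0.98 in ZFAS1 and 0.60 in SNHG6 completed the group. ZFAS1 rested on its brightest probe, since a second changed by 0.07, and the other probes of SNHG7 changed by 0.75 and -0.28. The falls were those of SNHG9 (-0.53, with 8.74, 8.77 and 8.77 against 9.35, 9.30 and 9.23 in control) and SNHG4 (-0.48). The GAS5 probe was detected on no AEZS-136 array and on 1 control array.

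The snoRNA probes themselves went mostly the other way. Of 182 measured snoRNA genes 26 fell and 3 rose, and 142 of the changes lay below 0 against 40 above it (median -0.15). Over all genes 6797 changes lay below 0 and 6609 above it. Of the 182 snoRNA genes 137 were detected on all 3 arrays of an L-428 group. SNORA22 was at 6.28, 6.45 and 6.22 with AEZS-136 and at 7.40, 7.43 and 7.10 in control, a change of -0.998 (SE 0.16, adjusted p = 3.39e-04). SNORD46 was at 7.17, 7.42 and 7.41 with AEZS-136 and at 8.05, 8.23 and 8.06 in control (change -0.78, adjusted p = 2.59e-04), and SNORA63 at 8.33, 8.36 and 8.56 against 9.03, 9.35 and 9.18 in control (change -0.77, adjusted p = 8.28e-05). These 3 did not overlap, whereas SNORD10 (-0.84) and SNORA38B (-0.63) did. The number of falls was 6 with the deposited normalized values, 8 without background correction and 12 with median scaling, and the list's median stayed below 0 in each (-0.08, -0.07 and -0.24).

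Host and guest could be set side by side where both were called. SNHG15 rose by 1.73 while SNORA9, which lies in one of its introns, changed by -0.76, at 6.68, 6.60 and 6.53 with AEZS-136 against 7.17, 7.71 and 7.20 in control. ZFAS1 rose by 0.98 while its guest SNORD12C changed by -0.68, at 6.34, 6.39 and 6.48 with AEZS-136 against 7.07, 6.91 and 7.25 in control. TAF1D rose by 1.21 while its guest SNORA8 changed by -0.42. SNHG1 rose by 1.16, and of its guests SNORD30 changed by -0.47 and SNORD25 rose by 1.07, at 8.30, 8.33 and 8.45 with AEZS-136 against 7.43, 7.30 and 7.15 in control. SNORD139 (0.96) and SNORA12 (0.40) were the other snoRNA genes that rose. The labelling kit primes on poly(A) tails, which mature snoRNAs and most clustered histone mRNAs lack, and which RNA forms these probes read was not tested.

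Clustered histone genes, which supply the histones of replicating chromatin, rose in 23 of 56 cases and fell in 0, with a median of 0.49 and 50 changes above 0. Of the 56 genes 48 were detected on all 3 arrays of an L-428 group. Many clustered histone genes are near-identical copies, so a single member is uncertain. H2AC6 had the largest change, 2.18, at 9.24, 9.06 and 9.03 with AEZS-136 and at 6.83, 6.96 and 6.99 in control. H2BC12 was the brightest, at 12.45, 12.41 and 12.47 with AEZS-136 against 10.55, 10.91 and 10.84 in control, a change of 1.67 (SE 0.10, adjusted p = 9.82e-10), and its second probe rose by 1.50. Members of every core histone class and the linker histone gene H1-2 were among those that rose.

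In the H2B class H2BC11 (1.97), H2BC12, H2BC5 (0.92), H2BC17 (0.83), H2BC21 (0.75) and H2BC8 (0.56) rose. H3C4, at 6.16, 6.61 and 6.46 with AEZS-136 and at 4.78, 4.96 and 5.34 in control, changed by 1.38 (adjusted p = 4.00e-05), and H3C10 by 1.29. H4C14 was at 8.45, 7.96 and 8.48 with AEZS-136 and at 6.19, 6.77 and 6.34 in control, a change of 1.86. H2AC19, H2AC20, H2AC18 and H2AC17 rose by 0.64 to 0.76, and H1-2 by 0.68. The count of rises was 15 with the deposited normalized values, 16 without background correction and 11 with median scaling, with 0 falls in each.

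**Figure D3:**
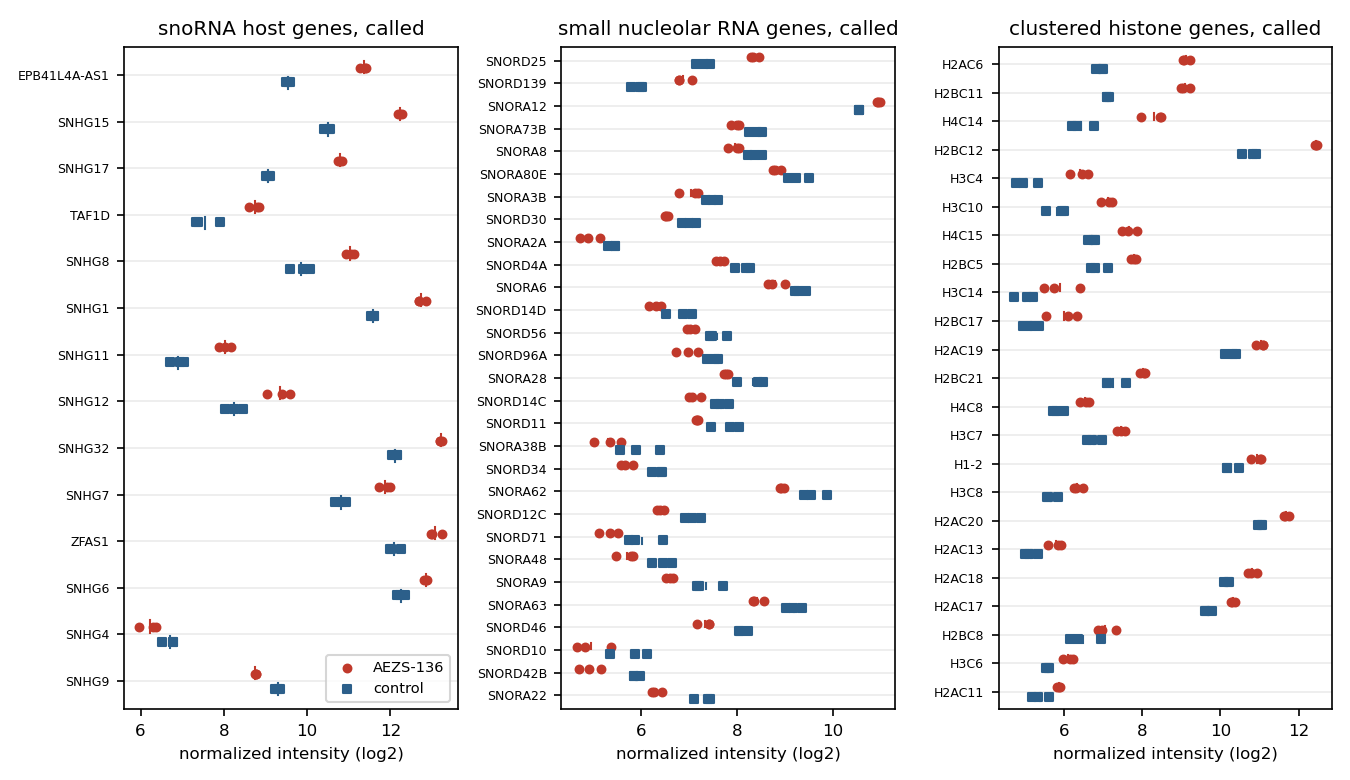
Normalized log2 intensity of the called snoRNA host genes (left), snoRNA genes (middle) and clustered histone genes (right) in L-428, ordered by change, with 3 AEZS-136 arrays as red circles and 3 control arrays as blue squares. Host and histone genes lie mainly to the right of their controls (12 of 14 and 23 of 23), snoRNA genes mainly to the left (26 of 29).

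Factors of nonsense-mediated decay, the surveillance pathway that removes transcripts with early stop codons, rose in 4 of 10 cases and fell in 0 (median 0.31). UPF1, its central helicase, was at 9.25, 9.36 and 9.39 with AEZS-136 and at 8.81, 8.65 and 8.52 in control, a change of 0.67 (adjusted p = 0.00152). SMG9 changed by 0.56, SMG5 by 0.51 and SMG1, the kinase of UPF1, by 0.41. These calls numbered 2 with the deposited normalized values or without background correction and 0 with median scaling.

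Of 23 splicing kinases and SR factors 2 rose and 2 fell. CLK4, a kinase of SR proteins, was at 8.68, 8.83 and 8.76 with AEZS-136 and at 7.48, 7.35 and 7.33 in control, a change of 1.37 (SE 0.12, adjusted p = 2.72e-07). CLK1 was at 10.48, 10.49 and 10.35 with AEZS-136 and at 9.72, 9.53 and 9.37 in control, a change of 0.90, or 1.17 by its second probe. Both lay wholly above their controls. SRSF3 changed by -0.55 and SRPK2 by -0.51, and CLK3 by 0.40 without passing the threshold.

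Chaperone transcripts under the heat shock factor HSF1 were lower in 4 of 21 cases and higher in 0 (median -0.17). HSPA1B, an inducible HSP70, was at 9.94, 9.85 and 9.97 with AEZS-136 and at 11.02, 11.13 and 11.11 in control, a change of -1.17 (SE 0.075, adjusted p = 1.98e-09). DNAJB1, its HSP40 partner, was at 8.15, 8.25 and 8.17 with AEZS-136 and at 9.32, 9.18 and 9.14 in control (change -1.02, adjusted p = 8.49e-08), and the co-chaperone BAG3 at 7.78, 7.85 and 7.97 against 8.54, 8.73 and 8.78 in control (change -0.82, adjusted p = 2.92e-05). HSPA8, the constitutive HSP70, was at 13.29, 13.35 and 13.10 with AEZS-136 and at 13.90, 13.72 and 13.87 in control, a change of -0.59, with -0.53 by its second probe. All 4 groups of treated values lay below their controls.

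HSP90AA1 (0.15), HSP90AB1 (-0.09), HSPH1 (-0.26) and HSF1 itself (-0.12) were not called. HSPA1A and HSPA1B are nearly identical, and their signals could not be separated by sequence here. HSPA1A was detected on no L-428 array. Of 19 genes of the endoplasmic reticulum unfolded protein response, which shares DDIT3 with the integrated stress response, 0 were called by limma, with 5 at an unadjusted p under 0.05.

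The promoters of HSPA1B (chr6:31827488-31827787, plus strand) and HSPA8 (chr11:123062087-123062386, minus strand), from RefSeq on GRCh38.p14, are shown for the inverted GAA units to which HSF1 is known to bind. Capitals mark GAANNTTC and TTCNNGAA, each its own reverse complement, and in HSPA8 the matches overlap in pairs.
HSPA1B: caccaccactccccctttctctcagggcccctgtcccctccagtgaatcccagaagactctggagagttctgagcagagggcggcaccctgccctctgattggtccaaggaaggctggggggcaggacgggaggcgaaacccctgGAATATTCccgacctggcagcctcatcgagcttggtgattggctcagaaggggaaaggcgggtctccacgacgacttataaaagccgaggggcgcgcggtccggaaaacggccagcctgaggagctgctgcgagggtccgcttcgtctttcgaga
HSPA8: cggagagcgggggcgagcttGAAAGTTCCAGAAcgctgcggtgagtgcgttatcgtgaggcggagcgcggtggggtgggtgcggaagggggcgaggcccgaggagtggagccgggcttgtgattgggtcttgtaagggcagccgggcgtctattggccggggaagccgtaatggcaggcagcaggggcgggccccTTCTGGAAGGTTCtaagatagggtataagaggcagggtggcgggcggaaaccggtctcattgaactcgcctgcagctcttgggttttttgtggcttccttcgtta

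GAANNTTC was found in 9 of 19 chaperone promoters and in 4.96% of the 10569 promoters of tested genes, and TTCNNGAA in 5 of 19 and 6.05%. GAANNTTC was found in 2 of 4 promoters of the chaperone genes that fell and in 7 of 15 of those not called.

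Immune genes that mark Hodgkin cells changed one by one. Of 23 NF-kB subunits, inhibitors and targets 3 rose, all of them genes of the IκB family, and 0 fell (median -0.10). NFKBIA, the gene of IκBα, was at 13.84, 13.87 and 13.78 with AEZS-136 and at 12.73, 12.70 and 12.62 in control, a change of 1.15 (SE 0.087, adjusted p = 2.68e-08). NFKBIE was at 7.79, 7.72 and 7.83 with AEZS-136 and at 6.54, 6.80 and 7.08 in control, a change of 0.97 (SE 0.17, adjusted p = 7.27e-04). NFKBIZ changed by 0.53, with -0.37 by its second probe. The subunit genes RELA (-0.17), REL (-0.24), RELB (0.24), NFKB1 (-0.15) and NFKB2 (0.07) and the target TNFAIP3 (0.01) were not called.

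JAK and STAT genes with their feedback members fell in 3 of 19 cases and rose in 0. PIM2, a survival kinase induced by STAT signalling, was at 7.39, 7.39 and 7.19 with AEZS-136 and at 8.18, 8.19 and 7.88 in control (change -0.76, adjusted p = 3.46e-04). CISH, a feedback inhibitor, was at 7.91, 7.85 and 8.17 with AEZS-136 and at 9.01, 8.48 and 8.61 in control (change -0.72, adjusted p = 0.0209), and the phosphatase gene PTPN6 changed by -0.48. Without control replicate 1 the count was 1, and without AEZS-136 replicate 2 it was also 1.

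IL5, a growth factor of eosinophils, was the cytokine with the largest fall, at 6.74, 6.64 and 7.15 with AEZS-136 against 8.13, 8.15 and 8.20 in control (change -1.31, SE 0.17, adjusted p = 3.14e-05). CXCR4, the receptor of CXCL12, changed by -0.48, and its other probes by -0.68 and -0.09. No other of 21 Hodgkin chemokines and interleukins was called, including CCL17 (0.03), IL13 (-0.12), IL6 (-0.13) and IL10 (0.00).

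Interferon-induced genes fell in 5 of 31 cases and rose in 0, with a median of -0.04. USP18, which removes the ubiquitin-like protein ISG15, was at 7.30, 7.50 and 7.36 with AEZS-136 and at 8.26, 7.97 and 8.09 in control (change -0.72, adjusted p = 2.43e-04). IFI44L changed by -0.59, RTP4 by -0.50, IFIT3 by -0.49 and GBP1 by -0.42, and MX1 (-0.17), ISG15 (-0.11) and IRF7 (0.09) were not called. The count was 2 without control replicate 1 and 2 or 3 with the other scalings. RFXAP, a regulator of MHC class II genes, changed by -0.82 (adjusted p = 0.00108), while CIITA (0.27), HLA-DRA (-0.01) and the PD-1 ligand genes CD274 (0.21) and PDCD1LG2 (-0.08) were not called.

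Of 16 ID genes and SMAD feedback genes ID3, BAMBI and SMAD7 fell. ID3 was not detected with AEZS-136 and on 2 of 3 control arrays, which puts its fall at 1.11-fold or more. None of the 3 was called with the other scalings or without AEZS-136 replicate 2.

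Of 14 death receptor and necroptosis genes the adaptor FADD (-0.46, at 8.69, 8.70 and 8.65 with AEZS-136 against 8.95, 9.26 and 9.23 in control) and the TRAIL receptor gene TNFRSF10A (-0.53) fell and 0 rose, and RIPK3 (0.02), MLKL (-0.23) and CASP8 (-0.30) were not called. The falls are 14.3%, beside 3.61% of all genes. Their number was 1 with each of the 3 other scalings and 1 without control replicate 1. Of 19 BCL2 family genes BCL2L2 alone was called (-0.41), whereas BCL2 (-0.11), MCL1 (0.09), BCL2L11 (-0.27), BID (-0.60) and PMAIP1 (0.60) were not. That call was lost with all 3 other scalings. Among 17 CDK inhibitors and growth arrest genes GADD45B rose (1.29) and TOB1 changed by -0.47, while CDKN1A (0.15) and CDKN1B (0.23) were not called. Of 28 genes of G1/S and DNA replication the cyclin gene CCNE1 (-0.53), the phosphatase gene CDC25A (-0.55) and SKP2 (-0.48), part of a ubiquitin ligase that acts on CDK inhibitors, fell and 0 rose. Of 28 mitotic genes BIRC5, which encodes survivin, rose by 0.53 and CDC25C by 0.43, and the list's median was 0.085. That is 7.14% beside 4.47% of all genes, and the count was 1 with the deposited normalized values and 0 with median scaling.

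HMOX1, the heme oxygenase gene, was at 6.33, 7.34 and 6.43 with AEZS-136 and at 5.10, 5.97 and 5.62 in control, a change of 1.13 (SE 0.21, adjusted p = 0.00121). Other targets of the antioxidant factor NRF2 did not share it, since TXNRD1 changed by -0.54 and SRXN1 by -0.64 and NQO1 (-0.25), GCLM (-0.37) and GCLC (-0.01) were not called. In this list of 20 measured genes 1 rose and 2 fell (5.0% and 10.0%, beside 4.47% and 3.61% of all genes). Among 23 p53 targets DDB2 rose by 0.42 and TIGAR and POLH changed by -0.54 and -0.53, with MDM2 at -0.07. These are 4.35% higher and 8.70% lower, beside 4.47% and 3.61% of all genes. ATG5 (0.73) and ATG12 (0.46), whose products are joined during autophagosome formation, rose out of 34 autophagy and lysosome genes. That is 5.88%, near the 4.47% of all genes that rose, and the count was 1 with the deposited normalized values and 0 with median scaling. Of 30 glycolysis and hypoxia genes 2 fell and 0 rose, with ANKRD37 at -0.67 and EGLN1 at -0.40. The falls are 6.67%, beside 3.61% of all genes, and each of the other scalings left 1.

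Ribosomal genes were nearly level. RPL37 alone of 74 cytosolic ribosomal protein genes was called, by a probe at 8.59, 8.84 and 8.77 with AEZS-136 and 6.51, 6.56 and 6.94 in control (change 2.06). That probe changed by 1.60 in KM-H2, 1.43 in L-540 and 1.47 in SUP-HD1. A dimmer second RPL37 probe, detected on 1 AEZS-136 array and 0 control arrays of L-428, changed by 0.18. Of 76 mitochondrial ribosomal protein genes 5 fell, MRPL44 (-0.64), MRPL36 (-0.52), MRPL50 (-0.47), MRPS2 (-0.41) and MRPS17 (-0.41), and 0 rose. These falls are 6.58% of the list, beside 3.61% of all genes. Their number was 3 with the deposited normalized values, 3 without background correction and 2 with median scaling. Among 32 genes of the MYC network and ribosome biogenesis 1 rose and 2 fell (3.12% and 6.25%, beside 4.47% and 3.61% of all genes). NLE1 rose by 1.01 and RRS1 changed by -0.69, at 9.90, 9.89 and 9.87 with AEZS-136 against 10.72, 10.60 and 10.41 in control. Of 345 measured ZNF genes, which encode zinc finger proteins, 17 rose and 22 fell (4.93% and 6.38%, beside 4.47% and 3.61% of all genes).

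Other large falls had no list in common. RBM12, an RNA-binding protein gene, was at 6.59, 6.60 and 6.86 with AEZS-136 and at 8.48, 8.07 and 7.87 in control (change -1.46), with -1.42 and -0.65 by its other probes. PLD6, which encodes a mitochondrial phospholipase, was at 7.26, 7.42 and 7.54 with AEZS-136 and at 8.82, 8.82 and 8.77 in control (change -1.40, adjusted p = 3.80e-09). TNFSF14, the ligand LIGHT, was detected by the named probe on 1 of 3 AEZS-136 arrays and changed by -1.29, with -1.26 by a brighter probe. Its brightest probe changed by -0.31 (mean 9.64 with AEZS-136, 9.95 in control) and was not called. CPNE1 was detected on no AEZS-136 array, which puts its fall at 2.18-fold or more.

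Probes of the same gene diverged for several of these transcripts. CERT1, the ceramide transfer protein gene, changed by -1.27 by the named probe and by -0.30 by a brighter one. PPM1B, a phosphatase gene, changed by -1.20 (9.41, 9.14 and 9.38 with AEZS-136 against 10.59, 10.44 and 10.51 in control), while its dimmer probes changed by 0.30 and 0.21 and were not called. ATP2A2, the gene of the calcium pump SERCA2, changed by -1.18 and by -0.36 and -0.22 through brighter probes that were not called. INSIG1, which retains the sterol sensor complex in the endoplasmic reticulum, changed by -1.12 at a level near 7 and by -0.06 by a brighter probe. BLOC1S2, a subunit of a lysosome-related organelle complex, rose by 1.84 with 0.20 by a dimmer probe, and OGFR changed by -1.05.

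UBE2E1, the gene of a ubiquitin-conjugating enzyme, was at 6.41, 6.22 and 6.10 with AEZS-136 and at 8.06, 7.07 and 7.04 in control, a change of -1.15 (SE 0.24, adjusted p = 0.00368). Its control replicate 1 stood nearly 1 unit above the others, and without that array the change was -0.81 (adjusted p = 0.0273). Fitted on the L-428 arrays alone it was -1.12 (adjusted p = 0.0684), and a brighter UBE2E1 probe changed by -0.07.

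Against the other lines, 885 of the 1788 probes called in L-428 were called in the same direction in KM-H2, which is 49.5% of the L-428 calls and 32.1% of the 2758 KM-H2 calls, and 5 were called in the opposite one. In L-540 the same count was 793 (44.4% of the L-428 calls and 35.6% of those in L-540), and in SUP-HD1 578 (32.3% and 35.9%). All lines shared 295 calls with the same sign. A further 565 probes were called in L-428 and in no other line, and for 88 of these the difference from the mean of the other lines itself passed the test.

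The response of L-428 differed from that of KM-H2, the other line classed as resistant, at 485 probes (1.97%), 213 higher (0.867%) and 272 lower (1.11%). Per gene these were 312 (2.33%), 154 higher (1.15%) and 158 lower (1.18%). CXXC5, a zinc finger protein gene, changed by 2.18 in L-428 (7.98, 7.67 and 7.79 with AEZS-136 against 5.54, 5.64 and 5.73 in control) and by -0.23 in KM-H2, a difference of 2.40 (SE 0.22, adjusted p = 1.46e-06), with 1.76 by its second probe. CHAC1 changed by 2.27 and -0.04 (difference 2.32, adjusted p = 8.51e-05), although no KM-H2 array detected it. BCL6 changed by 1.18 in L-428 and by -0.80 in KM-H2, a difference of 1.98 (SE 0.14, adjusted p = 1.63e-07).

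**Figure D4:**
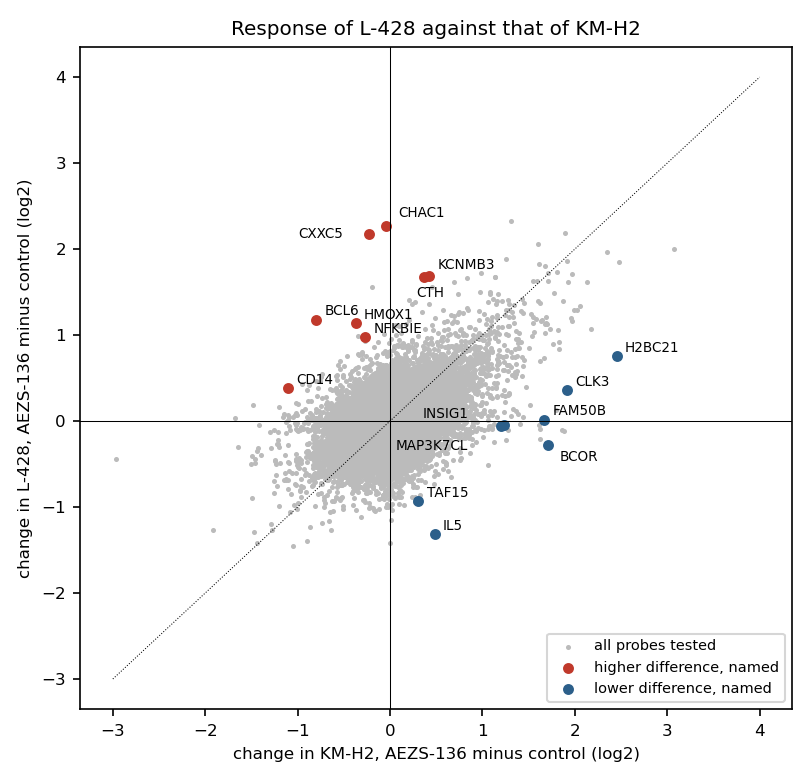
Change in L-428 (vertical) against change in KM-H2 (horizontal), both AEZS-136 minus control on the log2 scale, for all 24578 probes (grey), with the named genes whose difference was called higher (red) or lower (blue) and a dotted line of equal response. CXXC5 and CHAC1 rose in L-428 with changes of -0.23 and -0.04 in KM-H2, while BCOR, FAM50B, MAP3K7CL and the brighter INSIG1 probe lie to the right with L-428 changes near 0.

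Within the integrated stress response the lines differed in both directions. DDIT4 (difference 1.02, adjusted p = 0.00144) and CHAC1 rose more in L-428, and DDIT3 (-1.07, adjusted p = 5.88e-05), ATF4 (-0.94, adjusted p = 7.96e-05) and PPP1R15A (-0.66, adjusted p = 0.0065) rose less than in KM-H2, where their changes were 3.08, 1.67 and 1.68. A second CTH probe also rose more in L-428 (1.31), whereas the brightest one did not differ by the test (0.13, adjusted p = 0.748).

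In other genes the larger change was that of KM-H2. BCOR, a corepressor of BCL6, rose by 1.70 in KM-H2 and changed by -0.28 in L-428, at 7.83, 7.73 and 7.62 with AEZS-136 against 8.32, 7.95 and 7.73 in control with overlapping groups (difference -1.98, adjusted p = 3.29e-05). H2BC21 rose in both, by 0.75 in L-428 and 2.45 in KM-H2 (difference -1.70). FAM50B, MAP3K7CL and INSIG1 by its brighter probe changed by 0.02, -0.05 and -0.06 in L-428 and by 1.66, 1.23 and 1.20 in KM-H2. CLK3 changed by 0.36 in L-428 and by 1.92 in KM-H2, a difference of -1.56 by this probe and of -0.75 by a brighter one.

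Of 32 FOXO targets 6 differed upwards, BCL6, TSC22D3 (0.94), TNFSF10 (1.06), CDKN1A (0.85), S1PR1 (0.80) and FBXO32 (0.65), and 0 downwards, and of these 6 only BCL6 and TSC22D3 rose in L-428 itself. Over all genes 1.15% differed upwards. In KM-H2 itself 4 FOXO targets rose and 6 fell. Of the 32 FOXO targets 26 were detected on all 3 arrays of an L-428 group. Of the ID and SMAD list HEY1 (1.12) and ID2 (0.99), both detected on every L-428 array, differed upwards, with L-428 changes of -0.31 and -0.22 beside -1.42 and -1.21 in KM-H2. ID3, an inhibitor of basic helix-loop-helix factors, changed by -2.96 in KM-H2, and in L-428 it was too near background for a fall of that size to be measured. HES1 and FOSL1, called upwards as well, were detected on 1 and 2 of the 6 L-428 arrays, which sets the same limit. DUSP5 of the ERK output list differed upwards by 0.96, with changes of -0.26 in L-428 and -1.22 in KM-H2.

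The PIM kinase genes PIM1 and PIM2 differed downwards, by -1.03 (adjusted p = 1.68e-04) and by -1.05 (adjusted p = 0.00206). PIM1 changed by 0.07 in L-428 and by 1.10 in KM-H2, and PIM2 by -0.76 in L-428 and by 0.28 in KM-H2. PIM3 was detected on no L-428 array, so no difference is given for it. In the NF-kB list TNFAIP3 (-0.91), ICAM1 (-1.05), NFKBIZ (-0.79) and NFKBIA (-0.54) differed downwards, and NFKBIA rose by 1.15 in L-428 and 1.68 in KM-H2, and NFKBIE differed upwards by 1.24 (adjusted p = 0.00715), or by 0.91 (adjusted p = 0.213) with median scaling. GRB2, the adaptor that couples receptors to RAS, differed by -0.97 (adjusted p = 7.19e-04), with -0.37 in L-428 and 0.60 in KM-H2. IL5 changed by -1.31 in L-428 and by 0.48 in KM-H2, a difference of -1.79 (adjusted p = 2.30e-04).

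HMOX1 differed from KM-H2 by 1.51 (adjusted p = 0.00838) and KCNMB3, a potassium channel subunit gene, by 1.27 (adjusted p = 0.0303). KCNMB3 was at 9.64, 9.67 and 9.67 with AEZS-136 and at 8.12, 7.83 and 7.96 in control. Its difference from KM-H2 missed the threshold in 9 of the 12 fits that left out 1 array, with adjusted p from 0.0564 to 0.0778 and L-428 control replicates 2 and 3 and all L-428 AEZS-136 replicates among the arrays left out. CD14, a monocyte marker at low level in L-428 (5.09, 5.63 and 5.46 with AEZS-136, 4.91, 5.09 and 5.03 in control, with overlapping groups), was not called there, and its difference of 1.48 came with a change of -1.10 in KM-H2.

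Set against the mean of KM-H2, L-540 and SUP-HD1, the L-428 response differed at 238 probes (0.968%), 129 higher (0.525%) and 109 lower (0.443%), or at 157 genes (1.17%). CXXC5 (difference 1.58, SE 0.18, adjusted p = 8.04e-05) and BCL6 (1.47, SE 0.11, adjusted p = 8.84e-07) led the positive ones. Beside its change of 2.18 in L-428, CXXC5 changed by 1.39 in L-540, 0.63 in SUP-HD1 and -0.23 in KM-H2. BCL6 changed by -0.80, -0.12 and 0.05 in KM-H2, L-540 and SUP-HD1 beside its rise in L-428. MYB, the transcription factor gene, rose by 1.41, at 11.42, 11.48 and 11.64 with AEZS-136 against 10.20, 10.08 and 10.03 in control, and differed by 1.16 (SE 0.099, adjusted p = 2.95e-06), although it also rose by 1.07 in SUP-HD1. DDIT4 differed by 1.19 (adjusted p = 8.53e-05) and rose in all lines. With median scaling the differences were 0.89 for MYB (adjusted p = 0.0679) and 0.93 for DDIT4 (adjusted p = 0.134), no longer called.

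**Figure D5:**
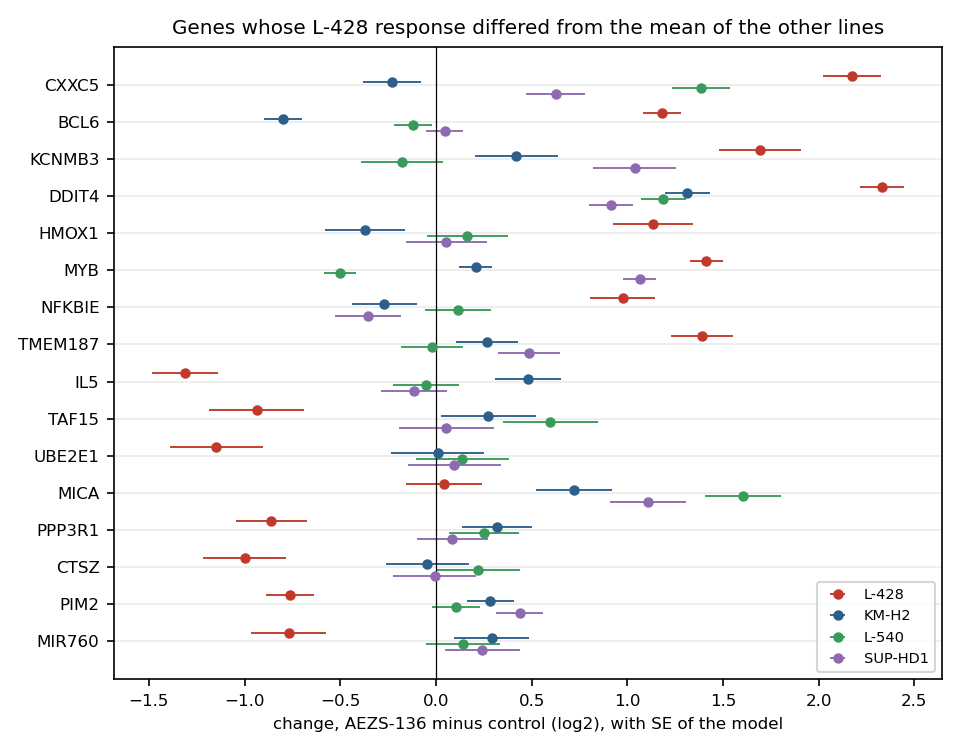
Change with AEZS-136 (log2, AEZS-136 minus control, bars the standard error of the model) in L-428 (red), KM-H2 (blue), L-540 (green) and SUP-HD1 (purple) for the 16 named genes whose L-428 response differed from the mean of the other lines. BCL6 lies at 1.18 in L-428 and between -0.80 and 0.05 in the others, while MICA lies at 0.04 in L-428 and between 0.72 and 1.60 in the others.

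NFKBIE (difference 1.14, adjusted p = 0.00579), HMOX1 (1.19, adjusted p = 0.0182), KCNMB3 (1.26, adjusted p = 0.0142) and TMEM187 (1.14, adjusted p = 0.00337) also differed upwards, and with median scaling none of these 4 was called, at differences of 0.86, 0.89, 1.01 and 0.87 (adjusted p = 0.185, 0.185, 0.0915 and 0.155). Without control replicate 1 the HMOX1 difference was 0.96 (adjusted p = 0.0777), without AEZS-136 replicate 2 it was 0.87 (adjusted p = 0.0515), and without control replicate 2 that of KCNMB3 was 1.19 (adjusted p = 0.0515). KCNMB3 changed by 1.69 in L-428, 1.04 in SUP-HD1, 0.42 in KM-H2 and -0.18 in L-540. TMEM187 was at 6.24, 6.52 and 6.25 with AEZS-136 and at 4.77, 4.60 and 5.46 in control, where 1 array detected it. On the lower side PIM2 (-1.04, adjusted p = 7.24e-04) and IL5 (-1.42, adjusted p = 7.43e-04) had the smallest adjusted p of the named genes.

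MICA, a ligand of the natural killer cell receptor NKG2D, changed by 0.04 in L-428 (6.09, 6.14 and 6.42 with AEZS-136, 6.19, 5.89 and 6.45 in control, with overlapping groups) and rose by 0.72, 1.60 and 1.11 in KM-H2, L-540 and SUP-HD1. The difference of -1.10 (adjusted p = 0.0190) missed the threshold without control replicate 1 or 3 or AEZS-136 replicate 1 or 2 (adjusted p 0.0564, 0.0700, 0.0708 and 0.0607). MIR760 was detected on 3 control arrays and on no AEZS-136 array of L-428, a fall of at least 1.22-fold, and its difference of -0.99 was lost in 7 of the 24 fits that left out 1 array, at adjusted p of 0.0504 to 0.128 and a value of -0.84 (adjusted p = 0.128) without control replicate 2.

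The remaining falls relative to the other lines shared 1 high control array. TAF15, an RNA-binding protein gene, was at 9.22, 9.30 and 9.22 with AEZS-136 and at 10.79, 9.91 and 9.85 in control. PPP3R1, the regulatory subunit gene of calcineurin, was at 8.91, 8.87 and 8.91 with AEZS-136 and at 10.30, 9.60 and 9.37 in control, and CTSZ, a lysosomal protease gene, at 6.31, 6.14 and 5.86 against 7.87, 6.71 and 6.74 in control. With UBE2E1 these genes were all highest on control replicate 1. Without that array the difference was -0.94 in place of -1.25 for TAF15 (adjusted p = 0.132), -0.68 in place of -1.06 for CTSZ (adjusted p = 0.0804), -0.89 in place of -1.23 for UBE2E1 (adjusted p = 0.116) and -0.81 in place of -1.08 for PPP3R1 (adjusted p = 0.0452). A second TAF15 probe differed from KM-H2 by -1.24, and that call was lost in 6 of 12 fits that left out 1 array (adjusted p 0.0588 to 0.0886), with -1.05 (adjusted p = 0.0835) without control replicate 1. Of the 24 fits that left out 1 array for the other lines, 21 lost the call for CTSZ, 14 for UBE2E1 and 13 for TAF15. Whether something particular to control replicate 1 contributes was not tested.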

How the data were processed

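Total RNA of 4 Hodgkin lymphoma lines was labelled as cRNA and hybridised to Illumina bead arrays, 3 arrays in each of 8 groups. The authors deposited mean bead intensity values from BeadStudio (version not given in the sources used here) without normalization, each with a detection value that rose with the signal and was read as 1 minus the detection p-value. They also deposited log2 values after robust spline normalization in lumi (version not given). Of 47323 probes, 3270 had a signal of 1 or less because the columns of their rows were out of register, and they were dropped, as were 112 unnamed columns of text fragments. No named per-sample column was left unused. The intensities were background corrected, quantile normalized and put on the log2 scale with neqc (limma 3.58.1, R 4.3.3, offset 16, with background parameters estimated through the detection p-values), and 24578 probes with a detection p under 0.05 on at least 3 of 24 arrays were kept.

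A linear model with 8 group means was fitted in limma to all 24 arrays, with moderated two-sided tests and Benjamini-Hochberg adjustment over all kept probes. A call needed an adjusted p under 0.05 and a change over 0.4 in size, the thresholds of the study's methods. Differences between lines were tested as contrasts of the same model. Depth per array does not apply to intensities, and the number of arrays limits the precision. Where a probe was detected on no array of a group, the fold is a lower bound set against the lowest detected signal of each array.

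Genes were named by rule. For the L-428 response these were the 12 largest rises and 12 largest falls among called probes with 1 symbol, detected on all 3 arrays of a group and with groups that did not overlap, and for each difference the 8 largest each way. For lists these were called members, up to 8 each way, and members needed to describe the list, and IER3 was always given. Lists used the brightest probe of each gene, and no set test was run. The members and lists were chosen with earlier results of these data known. Symbols came from the platform annotation, in which 30113 probes had 1 symbol, 8 had several and 17202 were not listed. Promoters came from RefSeq (GRCh38.p14) and were matched by symbol to 10569 of 13406 genes.

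Replicate numbers did not pair the arrays. The out-of-register rows placed the arrays in a single order, which was cut after position 12 into a first and a second export set of 12 arrays each. The first set holds AEZS-136 replicate 2 and control replicate 3 of L-428, and the second the remaining L-428 arrays. The cut was set by position, and whether the sets were handled apart was not tested. Alternatives covered the normalization, background correction, filter, export set, replicate block, arrays fitted, a per-probe test as in the study's methods, and leaving out each array. The model was tested on simulated data before use.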

Additional observations from a re-analysis of the deposited data

Results flagged for a closer look

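The responses of genes named for L-428 or called in its lists differed between L-428 and KM-H2 by the test of the difference itself in the following cases, given as L-428 minus KM-H2 on the log2 scale. In the stress response and its targets the differences were 2.32 for CHAC1, 1.02 for DDIT4 and 1.31 for a second CTH probe, and -1.07 for DDIT3, -0.94 for ATF4 and -0.66 for PPP1R15A. Among regulators of transcription and chromatin they were 2.40 for CXXC5, 1.98 for BCL6, 1.20 for MYB, 2.52 for ID3 (undetected with AEZS-136 in L-428, so that a fall like the one in KM-H2 could not be measured there), 0.94 for TSC22D3 and -1.98 for BCOR. In the histone genes they were -1.70 for H2BC21, -0.90 for H2BC5 and -0.80 for H2AC18, all of which rose in both lines.

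Of the snoRNA hosts and snoRNA genes SNHG7 differed by -0.67, SNORD25 by -1.11, SNORA73B by -0.64 and SNORD139 by 0.95. SNORD139 changed by 0.96 in L-428 and by 0.01 in KM-H2. Among immune and signalling genes the differences were 1.24 for NFKBIE, -0.54 for NFKBIA, -0.79 for NFKBIZ, -1.05 for PIM2, -1.79 for IL5, 0.71 for CXCR4, 1.48 for CD14, 1.003 for RTP4 and 0.97 for IFIT3. RTP4 and IFIT3, both interferon-induced, fell by 0.50 and 0.49 in L-428, with changes of -1.50 and -1.46 in KM-H2.

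Other differences from KM-H2 were 1.51 for HMOX1, 1.27 for KCNMB3, 1.12 for TMEM187, -0.51 for HSPA1B, -0.89 for ANKRD37, -0.41 for the cell cycle phosphatase gene CDC25A, -0.80 and -1.26 for the dimmer and brighter INSIG1 probes, -1.56 for CLK3, -1.65 for FAM50B, -1.28 for MAP3K7CL, -1.24 for TAF15 (lost in 6 of 12 fits without 1 array) and -1.18 for PPP3R1. Genes that differed from the mean of KM-H2, L-540 and SUP-HD1, and not from KM-H2 by its own test, were CEBPB (0.57), H2BC12 (0.90), H2AC6 (0.49), H2AC13 (0.49), TXNIP (0.82), MICA (-1.10), MIR760 (-0.99), CTSZ (-1.06), UBE2E1 (-1.23) and a second TAF15 probe (-1.25). TXNIP changed by 0.49 in L-428 and by -1.23 in SUP-HD1.

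The 3270 probes dropped for misaligned columns could be read in the deposited normalized values. There 16 of them were called in L-428, 9 higher and 7 lower, and 7 of these had a gene symbol. SNHG15 was the largest, at 11.74, 11.68 and 11.71 with AEZS-136 and at 10.26, 10.25 and 10.29 in control, a change of 1.44 by a probe other than the one above. TWF2-DT (0.60) and TRAPPC2L (0.46) were higher, and HIVEP3 (-0.61), GDF11 (-0.55), LRRC8B (-0.45) and TMEM33 (-0.42) were lower.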

How the results depend on the processing

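The 1788 calls in L-428 became 721 with the deposited normalized values (476 higher, 245 lower, 66.0% higher in place of 55.7%), 773 without background correction (64.7% higher), 658 with median scaling (46.0% higher), 947 on the L-428 arrays alone, 145 and 423 within the first and second export set, and 241 by the methods' t-test with Benjamini-Hochberg adjustment (77.6% higher, 4217 at an unadjusted p under 0.05). Of those, 707, 757, 657, 896, 126, 407 and 241 were among the 1788. Leaving out 1 array gave 1478 to 1761, and the replicate block 1758. The 485 differences from KM-H2 became 162 with median scaling (13.6% higher in place of 43.9%), 300 with detection on all 24 arrays, and 0 and 0 within the export sets, where 2752 and 2067 probes had an unadjusted p under 0.05 in limma, and leaving out 1 array gave 351 to 453. The 238 differences from the mean of the other lines became 43 with median scaling (23.3% higher in place of 54.2%), 110 with detection on all 24 arrays, and 0 and 0 within the export sets (2230 and 2186 at an unadjusted p under 0.05), and leaving out 1 array gave 152 to 260, with 152 without L-428 AEZS-136 replicate 1 and 158 without L-428 control replicate 2. The replicate block gave 462 and 223 for these differences and changed no call of the 24 named L-428 genes, while the difference of CTSZ from the other lines had an adjusted p of 0.0611 with it. The cause of these shifts was not tested, except that the fits within export sets and on L-428 alone hold fewer arrays.

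None of the genes named for the L-428 response or for the 2 differences changed direction under the alternatives run for them. For the 24 named L-428 genes 367 of 375 values kept their call, and the 8 lost ones were TNFSF14 and UBE2E1 in both export sets, CPNE1, CERT1 and OGFR in the first, and UBE2E1 on the L-428 arrays alone. For the 16 genes named for each difference, 51 of 327 values lost the call against KM-H2 and 109 of 521 against the other lines, 32 of each within the export sets. TMEM187 differed from the other lines by 0.34 with the deposited normalized values, 0.36 without background correction and 0.87 (adjusted p = 0.155) with median scaling. Median scaling also ended the calls of the differences from KM-H2 for the second CTH probe (1.06), HMOX1 (1.16), KCNMB3 (0.95) and NFKBIE (0.91), and from the other lines for KCNMB3 (1.01), DDIT4 (0.93), HMOX1 (0.89), MYB (0.89), NFKBIE (0.86) and MIR760 (-1.01). Medians of the stress response, amino acid, histone, snoRNA host, snoRNA, decay factor, chaperone and ERK lists kept their sign in all alternatives run. For the genes named for the L-428 response the fits within export sets and on L-428 arrays alone, for lists those by export set and filter, and all alternatives for the genes named for the 2 differences were chosen after seeing the data. The limits are 3 arrays per group with 1 of each L-428 group in the first export set, 1 cell line and unknown culture replication, and dim probes near background have compressed changes.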
